A study of Homo sapiens with 12 samples.

Results

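The miR-181 family was described in small RNA sequencing of AsPC-1 and PANC-1, established lines of human pancreatic ductal adenocarcinoma (PDAC), with and without knockdown of MYEOV. The members were chosen by name, as rows of the deposited counts that carry a listed id of an arm of a miR-181 hairpin, and they number 7 of the 1733 mature miRNAs listed in the 12 libraries. The family itself was selected on earlier results of these data, the change on knockdown included, so the values below are a description of a family already known to be of interest. The members are hsa-mir-181a-5p, hsa-mir-181a-3p, hsa-mir-181a-2-3p, hsa-mir-181b-5p, hsa-mir-181c-5p, hsa-mir-181c-3p and hsa-mir-181d-5p.

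AsPC-1 was derived from the ascites of a patient with PDAC, and PANC-1 from a primary pancreatic tumour. MYEOV is a gene first found overexpressed in myeloma. In each line, 3 libraries came from control cells (labelled WT and untreated) and 3 from cells transfected with siRNA against MYEOV and harvested at 48 h. The protocol lists 2 siRNAs, and the numbers 1 to 3 of the knockdown libraries, taken here as replicate numbers, could also name the siRNA, in which case their spread includes that between siRNAs. A negative-control siRNA is listed in the treatment protocol, so whether the controls were transfected is not clear from the labels, and an effect of transfection and of the knockdown cannot be told apart if they were not. The mRNA of MYEOV is not measured in small RNA libraries, and the degree of knockdown was not analysed here. Each line is a single cell line, and the labels do not say whether the 3 libraries of a group came from separate cultures, so that p-values measure the spread between these libraries, which may be technical.

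A miRNA gene is transcribed as a hairpin, and both of its strands can be cut out as mature miRNAs, named 5p and 3p for the side of the hairpin. Usually one strand, the guide, is loaded into an Argonaute protein and kept, while the other, the passenger, is discarded. The seed, a short stretch near the 5′ end of the miRNA, pairs with target mRNAs. In the miR-181 family the 5p strands are usually named as guides, and they are known for their part in lymphocyte development and in TGF-β signalling and epithelial-mesenchymal transition (EMT) of tumour cells.

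The mature sequences are shown because they separate the family into groups by seed. Each is written 5′ to 3′ as RefSeq gives it, with the seed (bases 2 to 8) in capitals, and all 7 members had an entry.
hsa-mir-181a-5p: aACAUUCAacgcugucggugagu
hsa-mir-181b-5p: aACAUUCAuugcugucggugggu
hsa-mir-181c-5p: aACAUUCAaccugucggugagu
hsa-mir-181d-5p: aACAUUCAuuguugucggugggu
hsa-mir-181a-3p: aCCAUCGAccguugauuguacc
hsa-mir-181a-2-3p: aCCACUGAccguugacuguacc
hsa-mir-181c-3p: aACCAUCGaccguugaguggac
The 4 members from the 5p side share 1 seed, and the 3 from the 3p side have 3 different ones. Below, guide and passenger are used of miR-181a and miR-181b, whose 5p arms had more reads than their 3p arms in every library, and the arms of miR-181c are called by their side only. Counted from 1 at the 5′ end, hsa-mir-181a-5p differs from hsa-mir-181b-5p by A9U, C10U and A21G, and hsa-mir-181b-5p differs from hsa-mir-181d-5p by C12U alone. The passenger arms hsa-mir-181a-3p and hsa-mir-181a-2-3p differ by U5C, C6U and U16C, so that 2 of these 3 differences lie in the seed. No pair of members shares a run of more than 15 bases. The authors kept reads of at least 18 bases that matched perfectly, so a read of one member did not match another. One further miRNA in RefSeq, hsa-mir-4262, carries the seed of the 5p members, and it was listed in 0 of the 12 libraries.

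The members come from 6 hairpins at 3 loci. In GRCh37, the coordinates of hg19, MIR181A1 lies at chr1:198828173-198828282 on the minus strand, 61 bases from MIR181B1 (chr1:198828002-198828111). Both lie in an intron of the long non-coding RNA gene MIR181A1HG. MIR181A2 lies at chr9:127454721-127454830 on the plus strand, 1158 bases from MIR181B2 (chr9:127455989-127456077), in an intron of MIR181A2HG and opposite an intron of NR6A1, which runs on the minus strand. MIR181C (chr19:13985513-13985622) and MIR181D (chr19:13985689-13985825) lie 66 bases apart on the plus strand in an intron of NANOS3. The hairpins of miR-181a and miR-181c are printed with both mature arms in capitals.
MIR181A1: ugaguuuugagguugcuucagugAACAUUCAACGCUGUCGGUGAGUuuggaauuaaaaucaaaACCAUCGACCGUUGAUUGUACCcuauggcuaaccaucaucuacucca
MIR181A2: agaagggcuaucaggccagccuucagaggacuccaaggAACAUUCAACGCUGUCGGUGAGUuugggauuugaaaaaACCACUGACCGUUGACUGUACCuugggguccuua
MIR181C: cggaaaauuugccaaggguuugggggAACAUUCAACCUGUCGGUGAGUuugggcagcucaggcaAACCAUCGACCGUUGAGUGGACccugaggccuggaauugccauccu
The same hsa-mir-181a-5p sequence stands in MIR181A1 and MIR181A2, so its count is the sum of both loci. The passenger arms do tell these loci apart, since hsa-mir-181a-3p comes from MIR181A1 and hsa-mir-181a-2-3p from MIR181A2. Likewise, hsa-mir-181b-5p sums MIR181B1 and MIR181B2.

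The libraries held 3805084 to 7311783 counted reads, those of PANC-1 fewer than those of AsPC-1, and 3 counts equal 0.42 to 0.789 CPM within a line, a count divided by the scaled size of its library. Counts come from amplified reads without molecular identifiers, so intervals built on them cover counting error only. AsPC-1 control replicate 1 stood apart: the chi-square per degree of freedom between its counts and those of the other controls of that line was 224 and 183, against 22.1 between these, and the values without it are given beside the results for AsPC-1. The summed level of the epithelial markers of the miR-200 group, miR-205 and miR-203a, of which 6 of 7 were listed, was 49600 to 50700 CPM in the libraries of AsPC-1 against 236 to 263 in those of PANC-1, and control and knockdown overlapped in both. In PANC-1, other summed markers did not overlap between control and knockdown, but neither did 36.7% of all single miRNAs tested there. Of these lists, hsa-mir-1-3p (muscle) was called higher (log2 fold change 0.36, adjusted p = 0.0174, edgeR quasi-likelihood test). The acinar and islet, liver and neural lists had 0 calls, beside 22.0% of all miRNAs called in PANC-1. Acinar and islet markers stood at 9.96 to 11.9 CPM in the controls and 6.05 to 9.37 after knockdown, the liver miRNA miR-122-5p at 2.20 to 3.36 and 3.64 to 5.73, muscle markers at 118 to 139 and 140 to 192, and neural markers (miR-9-5p and miR-124-3p) at 4270 to 4840 and 4140 to 4160. Fibroblast and smooth muscle markers reached at most 46.7 CPM in any library and blood markers at most 16.8, with overlap in both lines, as for every list in AsPC-1. The part of these markers in the results below was not tested. In bulk samples such as these, fewer cells with a miRNA and less of it per cell cannot be told apart.

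Each of the 7 members was counted in every library and passed the filter on low counts in each comparison. The 4 members from the 5p side together made up 0.645 to 0.785% of all counts in AsPC-1 libraries, and in PANC-1 libraries 0.283 to 0.362%. Of these reads, hsa-mir-181a-5p took 61.4 to 67.0% and hsa-mir-181b-5p 28.6 to 36.8% over all libraries. The 5p arms of the chromosome 19 locus were minor, with 1.44 to 1.73% for hsa-mir-181d-5p and 0.103 to 0.154% for hsa-mir-181c-5p in AsPC-1, and 3.99 to 4.62% and 0.270 to 0.324% in PANC-1. By reads, hsa-mir-181a-5p ranked between 38 and 42 among the miRNAs of each AsPC-1 library and between 59 and 66 in PANC-1. hsa-mir-181c-5p ranked between 287 and 429 and hsa-mir-181c-3p between 290 and 346. Small RNA reads are of nearly equal length, so counts need no scaling by length, but ligation and amplification differ between sequences and levels of different miRNAs compare only roughly.

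In control cells of AsPC-1, the order of the members by mean CPM was hsa-mir-181a-5p, hsa-mir-181b-5p, hsa-mir-181a-3p, hsa-mir-181a-2-3p, hsa-mir-181d-5p, hsa-mir-181c-3p and hsa-mir-181c-5p. Scaled within the line, these levels were 4400 ± 403, 2485 ± 61.6, 497 ± 42.5, 153 ± 11.5, 110 ± 3.27, 11.0 ± 1.39 and 9.18 ± 1.22 CPM (SD, n = 3). Only the last 2, the arms of MIR181C, overlapped between neighbours in this order. In control cells of PANC-1 the order was the same, with 1999 ± 175, 961 ± 67.2, 299 ± 41.0, 152 ± 8.41, 134 ± 2.10, 22.8 ± 5.83 and 9.03 ± 1.19 CPM (SD, n = 3). Here no neighbours overlapped, and hsa-mir-181c-3p stood clear of hsa-mir-181c-5p.

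**Figure D1:**
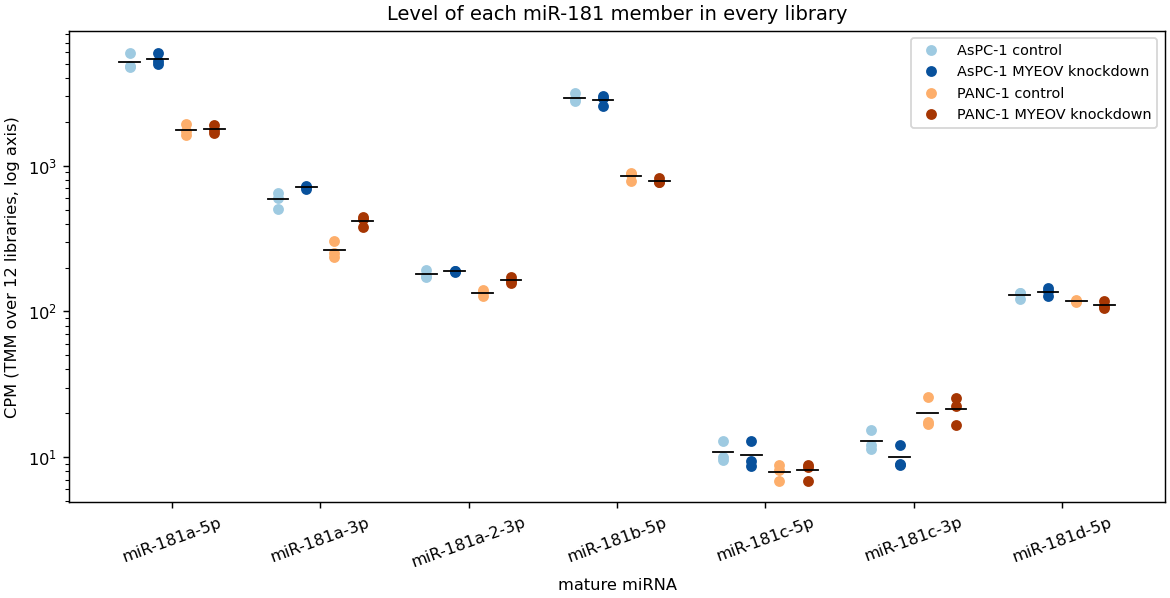
Level of the 7 miR-181 members in each of the 12 libraries, in CPM scaled with TMM factors over all 12 libraries (log axis), with 1 point per library and a bar at the group mean. The guides hsa-mir-181a-5p and hsa-mir-181b-5p lie higher in AsPC-1 (blue) than in PANC-1 (orange), whereas hsa-mir-181c-3p lies higher in PANC-1 under this scaling.

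The first comparison asked how the family differs between the control cells of the lines. The abundant guides were lower in PANC-1 than in AsPC-1. With scaling over all 12 libraries, hsa-mir-181a-5p stood at 5970, 4828 and 4767 CPM in the AsPC-1 controls and at 1920, 1727 and 1633 in the PANC-1 controls. The log2 fold change (LFC) of PANC-1 over AsPC-1 was -1.56 (SE 0.10, adjusted p = 1.7e-16, edgeR quasi-likelihood test with Benjamini-Hochberg adjustment over all 650 miRNAs tested). hsa-mir-181b-5p stood at 3146, 2774 and 2860 CPM in AsPC-1 and 886, 871 and 781 in PANC-1, an LFC of -1.79 (SE 0.10, adjusted p = 3.16e-19). No PANC-1 library reached the lowest AsPC-1 library for either guide.

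Both passenger arms of miR-181a were also lower in PANC-1. hsa-mir-181a-3p, from the chromosome 1 locus, stood at 302, 251 and 235 CPM in PANC-1 against 654, 502 and 603 in AsPC-1 (LFC -1.16, SE 0.11, adjusted p = 2.63e-12). hsa-mir-181a-2-3p, from the chromosome 9 locus, stood at 141, 135 and 127 CPM against 174, 172 and 193 (LFC -0.42, SE 0.10, adjusted p = 0.000267). The log2 ratio of hsa-mir-181a-2-3p to hsa-mir-181a-3p, which needs no scaling between libraries, was higher in PANC-1 by 0.74 (SE 0.13, exact two-sided permutation test p = 0.1, n = 3 per group, groups apart), and by 0.63 without AsPC-1 control replicate 1. With 3 libraries against 3, 0.1 is the smallest p this test can give.

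Of the 3 members from the chromosome 19 locus, 1 passed the threshold between the lines. hsa-mir-181d-5p stood at 133, 121 and 134 CPM in AsPC-1 and 117, 121 and 117 in PANC-1 (LFC -0.13, SE 0.10, adjusted p = 0.241). hsa-mir-181c-3p was the single member called higher in PANC-1, with 25.8, 16.9 and 17.4 CPM against 15.3, 12.2 and 11.4 (LFC 0.63, SE 0.20, adjusted p = 0.00401). Its partner arm hsa-mir-181c-5p had an LFC of -0.43 (SE 0.22, adjusted p = 0.066), which passed the threshold without PANC-1 knockdown replicate 3 (-0.46, adjusted p = 0.0481). In all, 4 members were lower and 1 higher in PANC-1, beside 81.8% of all 650 miRNAs that passed the same threshold in either direction, and the median LFC was -0.43 over the members and 0.13 over all miRNAs tested.

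These values moved with the scaling. The median LFC of all miRNAs was 0.30 with DESeq2's size factors, -0.65 with upper-quartile factors and 0.61 with total counts. hsa-mir-181a-5p, hsa-mir-181b-5p and hsa-mir-181a-3p stayed lower in PANC-1 and past the threshold under all 4 scalings, with LFC ranges of -2.35 to -1.07, -2.58 to -1.31 and -1.95 to -0.67 over all alternatives. The direction turned with total counts for hsa-mir-181a-2-3p (0.07), hsa-mir-181c-5p (0.05) and hsa-mir-181d-5p (0.35, adjusted p = 0.000851), with DESeq2's size factors for hsa-mir-181d-5p (0.04), and with upper-quartile factors for hsa-mir-181c-3p (-0.16). Upper-quartile factors also brought hsa-mir-181c-5p (-1.22, adjusted p = 1.92e-06) and hsa-mir-181d-5p (-0.92, adjusted p = 1.04e-10) past the threshold as lower in PANC-1. Over all alternatives, 4 to 6 members were called, beside 37.7 to 86.3% of all miRNAs tested. Without AsPC-1 control replicate 1, 5 members were called, beside 80.0% of all. The LFCs were then -1.48 for hsa-mir-181a-5p, -1.76 for hsa-mir-181b-5p, -1.10 for hsa-mir-181a-3p, -0.47 for hsa-mir-181a-2-3p, -0.14 for hsa-mir-181d-5p, 0.74 for hsa-mir-181c-3p and -0.32 for hsa-mir-181c-5p.

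**Figure D2:**
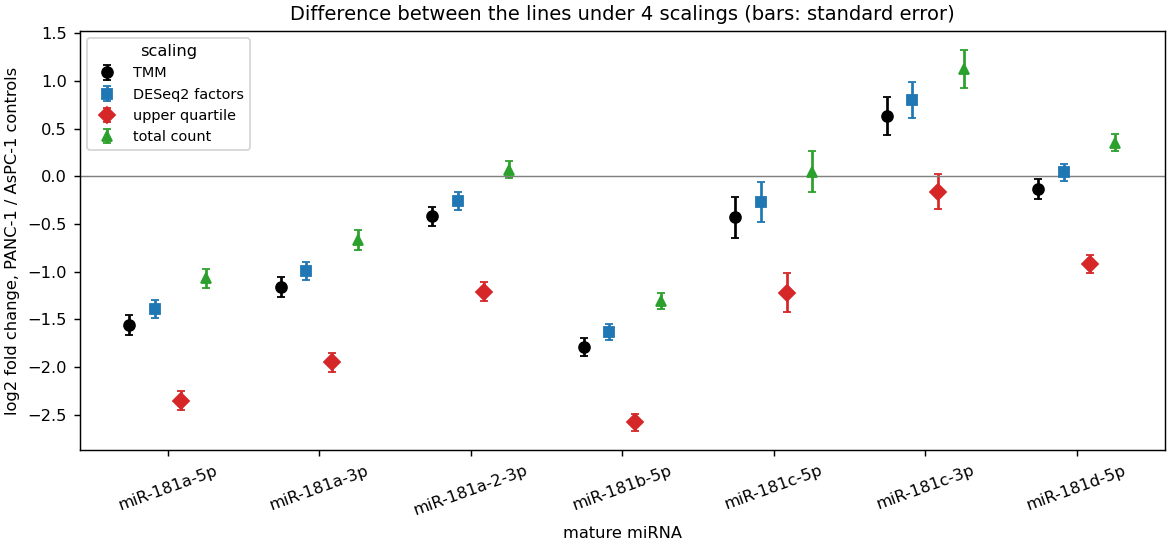
LFC of PANC-1 controls over AsPC-1 controls for each member under 4 scalings of the same counts, with bars of 1 standard error. The points of a member shift together with the scaling, while hsa-mir-181a-5p, hsa-mir-181a-3p and hsa-mir-181b-5p stay below 0 under each.

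The second comparison asked what changed on knockdown of MYEOV within each line. In both lines the passenger arm hsa-mir-181a-3p rose, and none of the 4 members from the 5p side passed the threshold. In AsPC-1, hsa-mir-181a-3p stood at 530, 449 and 512 CPM in the controls and 677, 602 and 663 after knockdown, scaled within the line, and the groups did not overlap. The LFC was 0.38 (SE 0.089, adjusted p = 0.0114), and 0.44 without AsPC-1 control replicate 1 (adjusted p = 7.53e-05). The call was lost without knockdown replicate 1 (adjusted p = 0.0949), without knockdown replicate 3 (0.0661) and with all 12 libraries in one fit (0.0969). In PANC-1, it stood at 345, 285 and 266 CPM in the controls and 433, 500 and 490 after knockdown, again without overlap, and the LFC was 0.67 (SE 0.095, adjusted p = 6.57e-06).

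The passenger arm of the chromosome 9 hairpin, hsa-mir-181a-2-3p, also rose in PANC-1. It stood at 161, 153 and 144 CPM in the controls and 183, 176 and 197 after knockdown (LFC 0.28, SE 0.093, adjusted p = 0.0279), with no overlap. This call was lost under 9 of 14 alternatives, with an adjusted p of up to 0.316, and among them were those that left out control replicate 2 or 3 or any knockdown replicate (adjusted p between 0.0528 and 0.119). Its LFC was 0.14 to 0.33 over all alternatives and 0.23 to 0.32 when a library was left out. In AsPC-1, its levels were 141, 154 and 164 CPM against 185, 160 and 172 (LFC 0.17, SE 0.095, adjusted p = 0.278), and the groups overlapped. Without AsPC-1 control replicate 1, the LFC was 0.12 (adjusted p = 0.308).

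The guide made from both of these hairpins, hsa-mir-181a-5p, stood at 2191, 1956 and 1850 CPM in the PANC-1 controls and 1886, 1999 and 2195 after knockdown (LFC 0.02, SE 0.087, adjusted p = 0.899). These ranges nearly coincided. In AsPC-1, it stood at 4838, 4319 and 4044 CPM and 4861, 4973 and 4834 (LFC 0.15, SE 0.082, adjusted p = 0.269). AsPC-1 control replicate 1 was the only control library within the range of the knockdown libraries, and without it the LFC was 0.23 (adjusted p = 0.00185), past the threshold.

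The second abundant guide, hsa-mir-181b-5p, stood at 2549, 2481 and 2426 CPM in the AsPC-1 controls and 2534, 2544 and 2657 after knockdown (LFC 0.05, SE 0.073, adjusted p = 0.697, and 0.08 with an adjusted p of 0.336 without AsPC-1 control replicate 1). In PANC-1, the values were 1011, 986 and 884 CPM against 875, 877 and 937 (LFC -0.10, SE 0.084, adjusted p = 0.404). Control and knockdown overlapped in both lines. With total counts in place of TMM factors, which shifted the median LFC of all miRNAs in PANC-1 from 0.03 to -0.12, the adjusted p of hsa-mir-181b-5p in PANC-1 was 0.0449. Over all alternatives, the LFC of hsa-mir-181b-5p in PANC-1 was -0.25 to -0.06.

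hsa-mir-181d-5p differs from hsa-mir-181b-5p by a single base. In AsPC-1, it stood at 108, 108 and 114 CPM in the controls and 125, 121 and 127 after knockdown, with no overlap but an adjusted p of 0.227 (LFC 0.18, SE 0.089, and 0.17 with an adjusted p of 0.134 without AsPC-1 control replicate 1). In PANC-1, the values were 133, 137 and 133 CPM against 119, 123 and 136 (LFC -0.09, SE 0.096, adjusted p = 0.529), and the groups overlapped. The arms of MIR181C rested on few reads, 30 to 71 counts per library for hsa-mir-181c-5p and 45 to 134 for hsa-mir-181c-3p. The LFC of hsa-mir-181c-5p was 0.03 in each line (SE 0.21 and 0.22, adjusted p = 0.934 and 0.938), and that of hsa-mir-181c-3p was -0.28 (SE 0.19, adjusted p = 0.379) in AsPC-1 and 0.11 (SE 0.18, adjusted p = 0.688) in PANC-1. With AsPC-1 control replicate 1 left out, the AsPC-1 values were 0.14 (adjusted p = 0.688) and -0.17 (adjusted p = 0.589).

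In AsPC-1, then, 1 of 7 members was called, beside 11.4% of all 498 miRNAs tested, and the median LFC was 0.15 over the members and close to 0 over all. In PANC-1, 2 of 7 were called, beside 22.0% of 551, with medians of 0.03 over the members and 0.03 over all. Groups did not overlap for 2 members in AsPC-1 (30.5% of all miRNAs) and 2 in PANC-1 (36.7% of all). The background moved with single libraries. In AsPC-1, it was 20.2% without control replicate 1, where 2 members were called. It was 4.62% without knockdown replicate 1 and 6.02% without knockdown replicate 3, with 0 members called each time. In PANC-1, it was 14.5% without control replicate 2, 68 of 569 without knockdown replicate 2 and 9.62% without knockdown replicate 3, with 1 member called each time. With 7 members, nothing about the family as a whole was read from these shares.

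**Figure D3:**
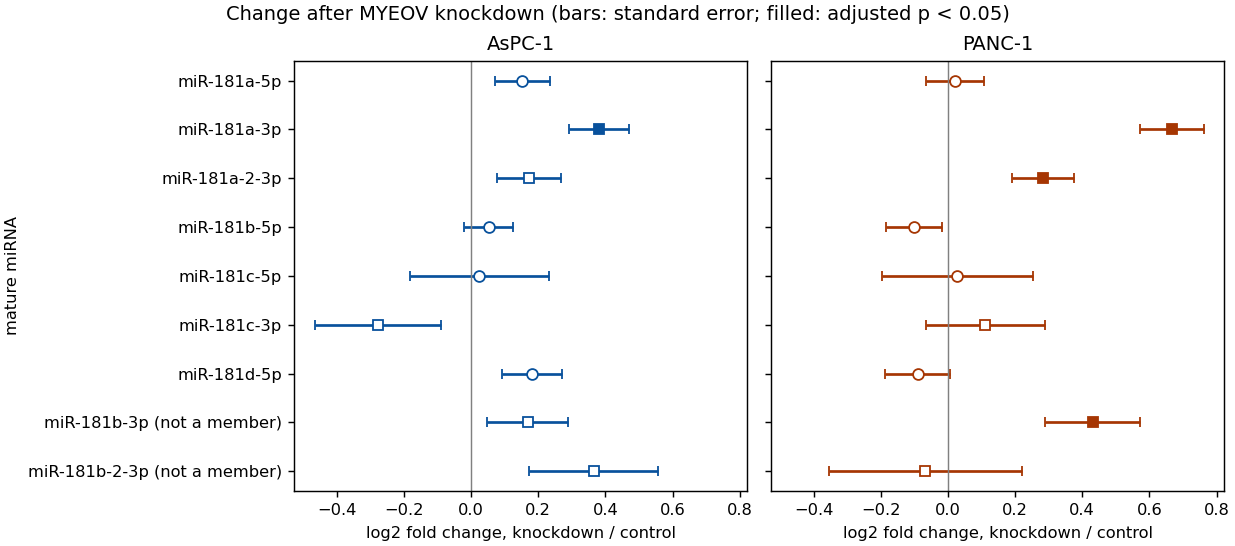
LFC of knockdown over control in each line for the 7 members and for 2 further arms of the miR-181b hairpins, with bars of 1 standard error, circles for 5p arms, squares for 3p arms and filled symbols for an adjusted p under 0.05. The filled symbols are all squares, namely hsa-mir-181a-3p in both lines and hsa-mir-181a-2-3p and hsa-mir-181b-3p in PANC-1.

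A difference between the changes in the lines was tested as an interaction term, fitted over all 12 libraries. For hsa-mir-181a-3p, the PANC-1 change exceeded the AsPC-1 change by 0.39 on the log2 scale (SE 0.15, unadjusted p = 0.0134, adjusted p = 0.264, edgeR quasi-likelihood test over 650 miRNAs). In that fit the LFC of hsa-mir-181a-3p was 0.27 in AsPC-1 (SE 0.11, adjusted p = 0.0969) and 0.67 in PANC-1. By edgeR, 0 members were called for a difference between the lines, and 1 had an unadjusted p under 0.05, beside 74 of all 650 miRNAs. DESeq2's Wald test also called 0 members. Of all 650 miRNAs, 0.308% were called, and the median difference over them was 0.12. This median was -0.04 with DESeq2's size factors and -0.10 with total counts. The difference of hsa-mir-181a-3p stood at percentile 77.5 of all. Once AsPC-1 control replicate 1 was left out, 0 members and 3.76% of all were called, with 0.33 for hsa-mir-181a-3p (SE 0.13, adjusted p = 0.179). Without AsPC-1 control replicate 2, hsa-mir-181a-3p was called, beside 20 of 667 in all.

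The ratio of the arms within a library does not depend on the scaling between libraries. For miR-181a, the reads of hsa-mir-181a-5p were divided by those of both passenger arms. The PANC-1 controls held 4.34, 4.47 and 4.51 guide reads per passenger read and the knockdown libraries 3.06, 2.96 and 3.19, and the groups did not overlap. The log2 difference was -0.53 (SE 0.036, exact two-sided permutation test p = 0.1, the smallest that 3 against 3 allow, n = 3 per group). In AsPC-1, the controls held 7.21, 7.16 and 5.98 and the knockdown libraries 5.64, 6.53 and 5.79, which overlap (log2 difference -0.18, SE 0.11, exact permutation test p = 0.2). Without AsPC-1 control replicate 1, this difference was -0.13.

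The passenger arms of the miR-181a loci were also compared with each other. In PANC-1, the controls held 0.466, 0.536 and 0.540 reads of hsa-mir-181a-2-3p per read of hsa-mir-181a-3p and the knockdown libraries 0.424, 0.352 and 0.402, with no overlap. The log2 difference was -0.39 (SE 0.11, exact permutation test p = 0.1). In AsPC-1, the ratios were 0.266, 0.342 and 0.320 against 0.273, 0.266 and 0.259 (log2 difference -0.21, SE 0.11, exact permutation test p = 0.3), and the groups overlapped through AsPC-1 control replicate 1, without which the difference was -0.31 with groups apart.

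The counts also list 3 arms of these hairpins that are not among the 7 members. hsa-mir-181b-3p, the passenger arm of MIR181B1, was 32.8, 27.2 and 25.4 CPM in the PANC-1 controls and 39.0, 33.9 and 42.1 after knockdown (LFC 0.43, SE 0.14, adjusted p = 0.0279), without overlap. In AsPC-1, its LFC was 0.17 (SE 0.12, adjusted p = 0.403), and 0.10 without control replicate 1 (adjusted p = 0.544). hsa-mir-181b-2-3p, from MIR181B2, had an LFC of 0.37 (SE 0.19, adjusted p = 0.26, and 0.32 without control replicate 1, adjusted p = 0.303) in AsPC-1 and -0.07 (SE 0.29, adjusted p = 0.899) in PANC-1. hsa-mir-181d-3p had 0 to 4 counts per library and did not pass the filter.

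For miR-181b, the arm ratio was likewise lower after knockdown in PANC-1 in every library. There, the controls held 25.8, 29.0 and 30.3 reads of hsa-mir-181b-5p per read of both 3p arms and the knockdown libraries 19.8, 21.1 and 20.3, with no overlap (log2 difference -0.47, SE 0.073, exact permutation test p = 0.1). In AsPC-1, the log2 difference was -0.14 (SE 0.12, exact permutation test p = 0.3), or -0.05 without control replicate 1, and the groups overlapped.

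The hairpin of miR-181c had a different balance of arms. The AsPC-1 controls held 0.845, 0.818 and 0.841 reads of hsa-mir-181c-5p per read of hsa-mir-181c-3p, and the PANC-1 controls 0.343, 0.480 and 0.395, so that its 3p arm had more reads in every control library. In each AsPC-1 control the 95% exact binomial interval of the 5p share included equal shares (lowest bound 36.6%, highest bound 54.7%), so this order did not exceed counting error there, while in the PANC-1 controls the highest bound was 40.5%. The log2 difference of PANC-1 from AsPC-1 was -1.04 (SE 0.14, exact permutation test p = 0.1, groups apart). The ratio of miR-181a was also lower in PANC-1 controls (log2 difference -0.61, SE 0.090), as was that of miR-181b (-0.66, SE 0.11), each with groups apart and p = 0.1 in the same exact permutation test. Leaving out AsPC-1 control replicate 1, these differences were -1.03 for miR-181c and -0.56 for both miR-181a and miR-181b, with groups apart. On knockdown, the ratio of miR-181c was 0.961, 0.770 and 1.44 in AsPC-1 (log2 difference 0.29, SE 0.26, exact permutation test p = 0.4, and 0.30 without control replicate 1) and 0.417, 0.381 and 0.348 in PANC-1 (log2 difference -0.08, SE 0.16, p = 0.7), overlapping the controls in both lines. Over the ratios given here the exact test cannot pass a threshold of 0.05, with or without adjustment.

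**Figure D4:**
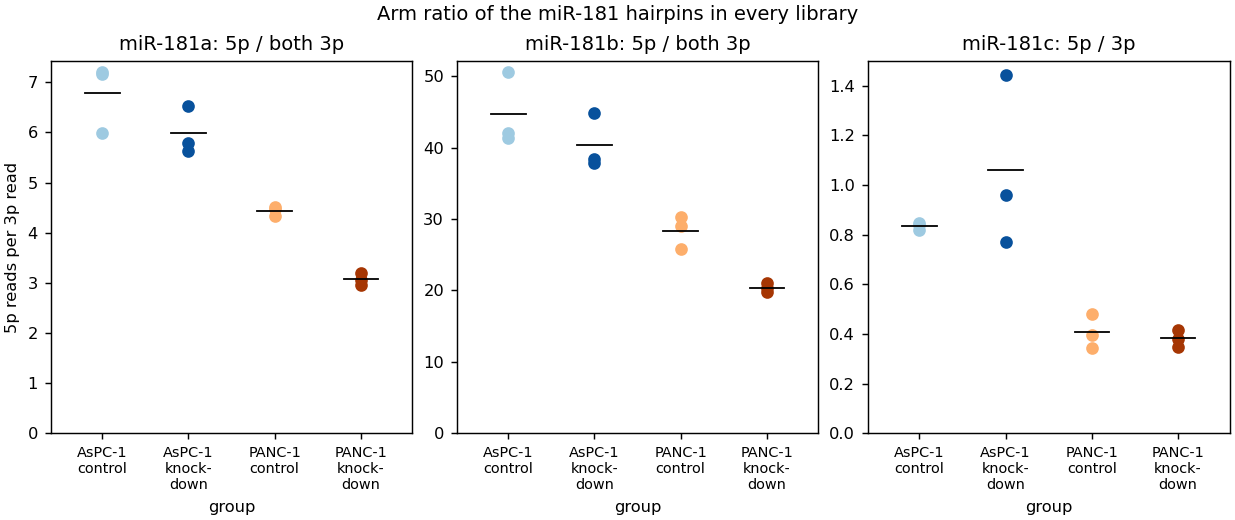
Reads of the 5p arm per read of the 3p arm or arms of the miR-181a, miR-181b and miR-181c hairpins, with 1 point per library, a bar at the group mean and axes that start at 0. In PANC-1 the knockdown libraries of miR-181a and miR-181b lie below all controls, and the ratio of miR-181c is under 1 in all libraries but AsPC-1 knockdown replicate 3.

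These changes were set beside those of hairpins whose 5p and 3p arms share a name and were both tested, with miR-181a added. Other hairpins with an arm named by a locus number, such as miR-16 and miR-92a, were left out. Groups of the log2 arm ratio did not overlap for 29.9% of 127 hairpins in AsPC-1 and 29.3% of 150 in PANC-1. Ranked by size, the change of miR-181a in PANC-1 stood at percentile 80 among these hairpins and that in AsPC-1 at percentile 39.4, and the median size of the change was 0.26 in either line. A 3p arm more abundant than its 5p arm was found in the controls for 42.5% of these hairpins in AsPC-1 and 48.7% in PANC-1.

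Of each of these hairpins, the arm with the lower mean over the 6 libraries of a line was taken as the less abundant one. For miR-181a, both 3p arms were counted. Other arms named by a locus number were left out, so the shares below do not cover them. In AsPC-1, hsa-mir-92a-1-5p (LFC 1.07), hsa-mir-125b-1-3p (0.75) and hsa-mir-16-2-3p (0.64) among those left out were called higher. Others, such as hsa-mir-30c-2-3p (LFC -0.18), were not called. Of the less abundant arms tested, 12.5% (16 of 128) rose in AsPC-1 and 4 fell, and 17.9% (27 of 151) rose in PANC-1 and 7 fell. Of their more abundant partners, 3 rose and 9 fell of 127 in AsPC-1, and 16 rose and 20 fell of 150 in PANC-1. The median LFC of the less abundant arms was 0.02 in AsPC-1. In PANC-1 it was 0.07. The rise of hsa-mir-181a-3p was larger, at percentile 86.1 of the LFCs of all miRNAs tested in AsPC-1 and percentile 96.6 in PANC-1.

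**Figure D5:**
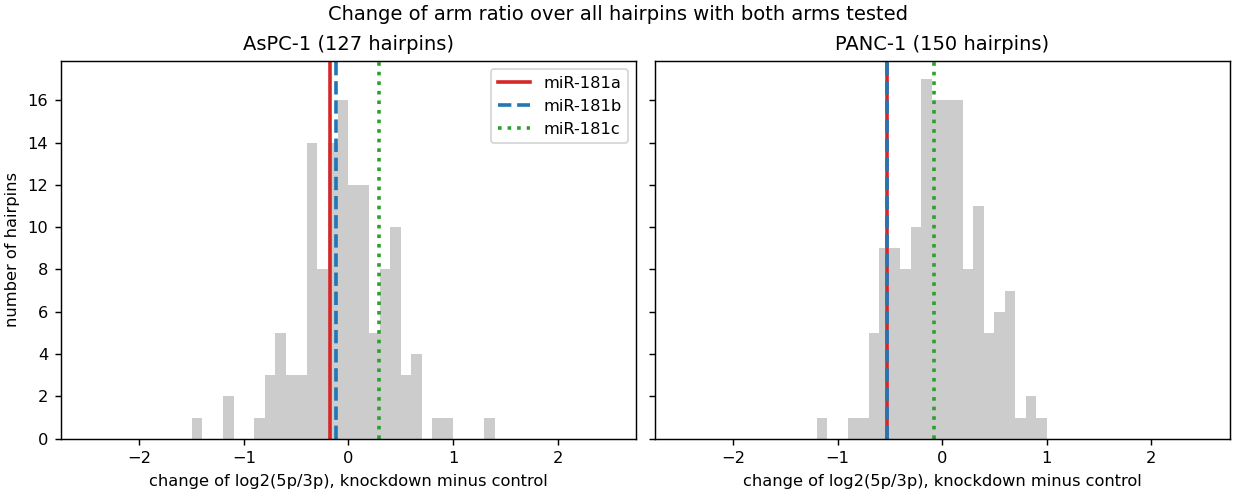
Histogram of the change of the log2 ratio of 5p to 3p reads on knockdown in each line, in bins of 0.1. It covers miR-181a and the hairpins whose 5p and 3p arms share a name and were both tested. Lines stand at miR-181a (both 3p arms summed), miR-181b (hsa-mir-181b-3p alone) and miR-181c. In PANC-1 the lines of miR-181a and miR-181b fall together near -0.53, inside the range of the other hairpins.

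The miRNAs whose pattern was most like that of hsa-mir-181a-5p were found by Pearson correlation of log2 CPM over the 12 libraries, each centred on the mean of its line, among 641 other miRNAs. The highest were hsa-mir-151b (r = 0.898), hsa-mir-195-5p (0.793), hsa-mir-758-3p (0.790), hsa-mir-140-3p (0.782) and hsa-mir-16-1-3p (0.765). Of these, hsa-mir-758-3p did not pass the filter on low counts within AsPC-1, so its values rest on few reads there. The mean of hsa-mir-195-5p in AsPC-1 was only 2.70 CPM in the controls and 3.11 after knockdown. Within the family, the other members from the 5p side had r = 0.706 (hsa-mir-181b-5p), 0.598 (hsa-mir-181c-5p) and 0.514 (hsa-mir-181d-5p). The passenger arms from its own hairpins had lower values, 0.409 for hsa-mir-181a-3p and 0.171 for hsa-mir-181a-2-3p, and hsa-mir-181c-3p had 0.670. The points share libraries and scaling, and the values are a description. They include AsPC-1 control replicate 1, which stood apart, and were not computed without it.

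Other miRNAs tied to TGF-β signalling and EMT were followed as a list of 18, of which 17 were listed and 15 tested in each line. In AsPC-1, 0 of 15 were called by edgeR, beside the 11.4% of all miRNAs, and DESeq2 called 0 (12.4% of all). By edgeR, 1 of the 15 had an unadjusted p under 0.05, beside 123 of all 498 miRNAs. In PANC-1, 2 rose and 1 fell, or 3 of 15 beside the 22.0% of all miRNAs, and DESeq2 called 2 (23.6% of all). hsa-mir-21-5p, an abundant miRNA of many tumours, rose most (LFC 0.30, SE 0.099, adjusted p = 0.0268), and hsa-mir-429, an epithelial miRNA of the miR-200 family, fell (LFC -0.43, SE 0.15, adjusted p = 0.0403 by edgeR and 0.0621 by DESeq2's Wald test). The list had a median LFC of 0.09 in AsPC-1. In PANC-1, its median was 0.0029. Between the control cells of the lines, 4 of 16 tested were higher and 8 lower in PANC-1, beside the 81.8% of all miRNAs called in either direction.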

How the data were processed

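Small RNA was sequenced in 12 libraries, 3 for each of AsPC-1 and PANC-1 as control and after MYEOV knockdown, grouped by the sample labels. The authors trimmed adapters, mapped reads to hg19 with Bowtie (version not given in the sources used here), kept perfect matches of at least 18 bases and deposited raw counts per mature miRNA. A deposited count covers the sequences that share the 5′ end of the most abundant one, which leaves out isoforms that start elsewhere. A miRNA not listed in a library was given 0, and 0 columns were left unused. The labels and the methods of the study differ in the harvest time, and the labels were used.

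Counts were fitted with edgeR 4.0.16 in R 4.3.3 (filterByExpr with a minimum count of 10, TMM factors, quasi-likelihood F test). Each line had its own fit, and the contrasts between lines came from a fit over all 12 libraries. P-values were adjusted by Benjamini-Hochberg over all miRNAs tested, with a threshold of 0.05. An SE is the absolute LFC over the square root of F. Arm ratios were log2 ratios of counts plus 0.5, compared by exact two-sided permutation tests of 3 libraries against 3. DESeq2 1.42.0, other scalings, other filters, a replicate block and leaving out each library were alternatives. The values of other miR-181 arms, of the miR-181b ratio and of the difference between the lines without AsPC-1 control replicate 1 were added after the data were seen. The fits were run on simulated counts with a fixed spread and with changes larger than that of any member on knockdown. Changes of the size reported here on knockdown were not simulated. The labels number the libraries in each group, and those numbers were checked as a pairing by correlating how far the libraries of 1 number lay from the means of their groups, which gave values of -0.155 to 0.139, so the libraries were not treated as paired.

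All 7 members are named by rule, with other arms of miR-181 hairpins, miRNAs that share the seed of the 5p members, the 5 miRNAs most like hsa-mir-181a-5p, and the extremes of the TGF-β list. The members and lists were chosen with earlier results of these data known. Mature and hairpin sequences are from RefSeq (GRCh38.p14), and the printed hairpins are identical in GRCh37.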

Additional observations from a re-analysis of the deposited data

How the results depend on the processing

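hsa-mir-181a-3p passed the threshold in PANC-1 under all 14 alternatives (LFC 0.52 to 0.77, adjusted p up to 0.00274) and in AsPC-1 under 11 of 14 (0.27 to 0.44, adjusted p 7.53e-05 to 0.0969). With all 12 libraries in one fit, 0 members were called in AsPC-1 (10.8% of all miRNAs) and 1 in PANC-1 (10.3% of all). No filter on low counts and a filter of at least 1 CPM in 3 libraries each left 1 call in PANC-1, beside 5.92% and 15.4% of all. Leaving out each library in turn gave 0 to 2 calls in AsPC-1 (0 without knockdown replicate 1 or 3, 2 without control replicate 1), 1 to 2 in PANC-1, and 0 to 1 for the difference between the lines, beside 4.62 to 20.2%, 9.62 to 22.5% and 0.150 to 3.76% of all. The cause was not tested. With hsa-mir-181a-3p alone as the passenger arm, the log2 arm ratio changed by -0.65 in PANC-1.

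With the replicate block, 1 member was called in AsPC-1, 2 in PANC-1, 4 between the lines and 0 for the difference, beside 5.82%, 27.8%, 73.4% and 0.308% of all, and the call lost was that of hsa-mir-181c-3p between the lines (LFC 0.60, adjusted p = 0.0827). The replicate numbers correlated at -0.155, -0.121 and 0.128 in AsPC-1 and 0.0509, 0.029 and 0.139 in PANC-1. Over all miRNAs, the block gave 29 calls in place of 57 in AsPC-1 and 153 in place of 121 in PANC-1, where total counts turned 70 higher and 51 lower into 26 and 117.

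Knockdown values near 0 changed sign. With all 12 libraries in one fit, AsPC-1 gave -0.05 for hsa-mir-181b-5p and -0.08 for hsa-mir-181c-5p. With total counts, PANC-1 gave -0.13 for hsa-mir-181a-5p, -0.12 for hsa-mir-181c-5p and -0.04 for hsa-mir-181c-3p, and the 1 CPM filter gave -0.0026 for hsa-mir-181a-5p. Leaving out a library gave ranges of -0.16 to 0.14 for hsa-mir-181c-5p in AsPC-1 and, in PANC-1, -0.05 to 0.08 for hsa-mir-181a-5p, -0.07 to 0.13 for hsa-mir-181c-5p and -0.04 to 0.33 for hsa-mir-181c-3p. Between the control cells, hsa-mir-181d-5p was 0.04 with DESeq2's size factors and with its Wald test, 0.35 with total counts and 0.02 in the 6 control libraries alone. hsa-mir-181c-3p was -0.16 with upper-quartile factors, and hsa-mir-181a-2-3p was 0.07 and hsa-mir-181c-5p 0.05 with total counts. The low counts of the miR-181c arms limit what these libraries can show for them.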
